A study of Homo sapiens with 4 samples.

Results

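The genes described here encode the subunits and assembly factors of the proteasome. They were chosen by symbol, as every measured gene whose name begins with PSM, a letter from A to G and a number, and 48 of the 17217 named genes on the array met this rule. The 48 genes were read by 168 probes in 56 targets, where a target is 1 RefSeq transcript. PSMC3IP and PSME3IP1 met the rule by name alone, since they encode partners of other proteins and not subunits. PSMB11, a subunit of the thymus, and PSMG4, a chaperone, had no matched target and were not analysed here.

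All RNA came from HEK293 cells, an immortalized line made from human embryonic kidney with adenovirus DNA, grown in DMEM with 10% serum and left untreated. The labels give 4 biological replicates of this single group, so no condition could be compared with another. Each replicate had its own culture plate and extraction, all of 1 line. In the main test p-values rest on 1 spread between these cultures, shared by all genes, and not on the spread of each gene. Each replicate was hybridised in 1 colour to a NimbleGen array of 60-base probes. Values are deposited log2 intensities. The number of arrays limits the precision.

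The proteasome degrades proteins that carry ubiquitin. Its core, the 20S particle, is a barrel of alpha rings around beta rings, and some of the beta subunits hold the cutting sites. The 19S particle caps the barrel, binds ubiquitin, unfolds the substrate with a ring of ATPases and feeds it into the core. Dedicated chaperones build both particles and then leave. In cells exposed to interferon the usual cutting subunits are replaced by inducible ones, which change the peptides offered to the immune system. The transcription factor NFE2L1 raises the subunit genes together when proteasome activity falls.

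Genes for seminal proteins, which the study took as unlikely to be expressed in these cells, served as controls. They set a baseline for every array, 2 SD over their mean. Distance means the level of a gene less that baseline, and genes with a positive average distance were counted as detected. For replicates 1 to 4 the baseline lay at 9.47, 9.94, 10.69 and 10.32 log2 units. The control means were 7.09, 7.26, 7.84 and 7.70 on the same arrays. The highest control stood at 9.23, 9.87, 10.73 and 10.12, so that on replicate 3 it lay above the baseline. A gene under the baseline is not shown to be absent. Of the 48 genes, 41 (85.4%) were detected, beside 52.7% of all genes. The same number, 41, lay above the baseline on all 4 arrays, beside 45% of all genes. A one-sided limma test of the distance against 0, with Benjamini-Hochberg adjustment over all genes at 0.05, also called 41, beside 45.9% of all genes. The median of the mean distances was 3.85 log2 units for the 48 genes and 0.26 for all genes. These shares describe 1 list on these arrays, and its members were chosen with earlier results known. Probes differ in affinity, and distances of different genes therefore do not rank their transcripts by abundance.

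Distances moved with the baseline. Replicate 1 had the lowest baseline and gave the largest distance for 40 of the 41 detected genes, and replicate 3 had the highest baseline and gave the smallest for 37 of them. The 48 genes had median distances of 4.68, 4.26, 3.16 and 3.40 on replicates 1 to 4. Before subtraction their median level was 14.15, 14.19, 13.85 and 13.72 log2 units on the same arrays. The highest level of a member on an array ran from 15.44 to 15.68, and the highest probe value in the table was 15.99. Saturation was not examined, because no raw intensities were used.

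**Figure D1:**
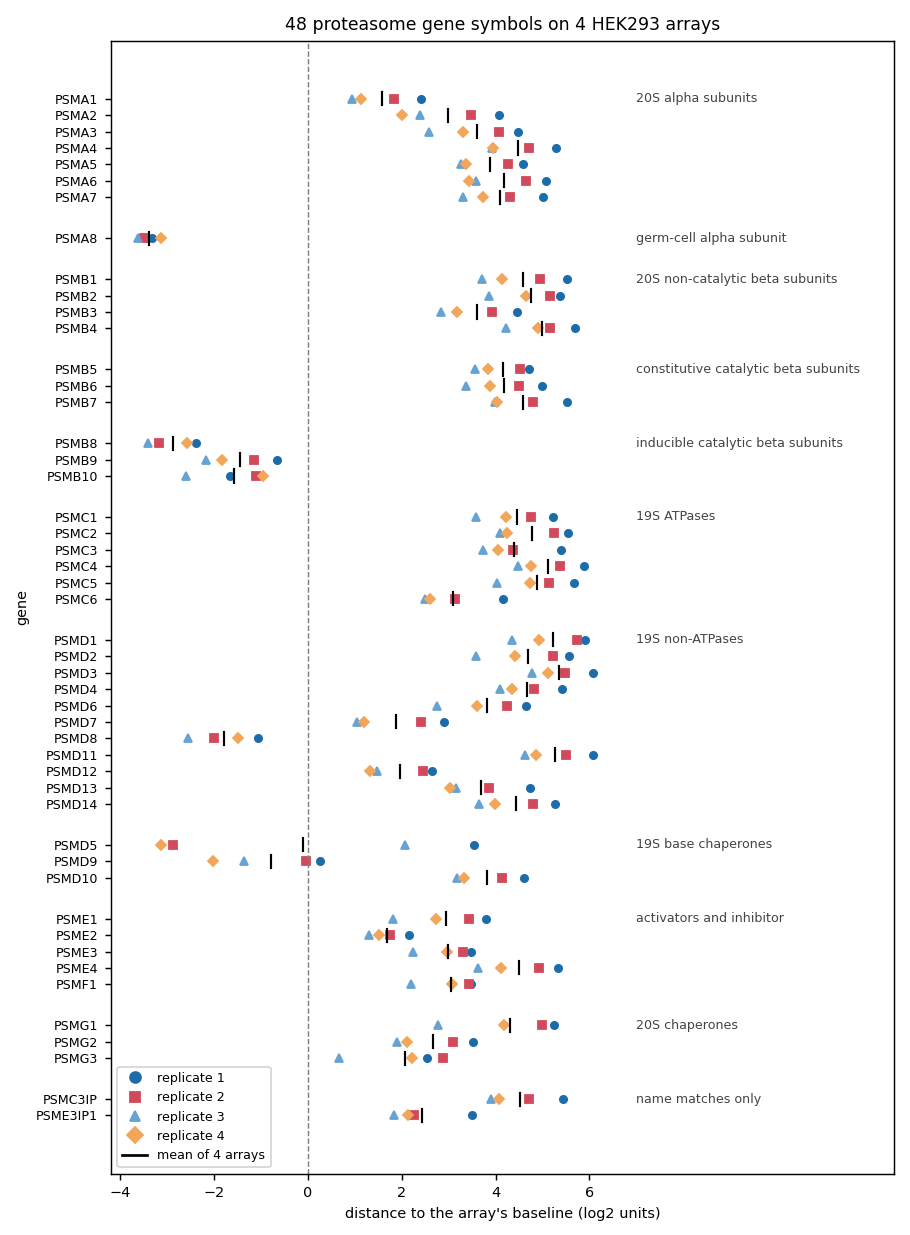
Distance of each of the 48 genes to its array's baseline, in log2 units (horizontal axis), by gene and role (vertical axis), with 1 symbol per array, a bar for the mean of 4 arrays and a dashed line at the baseline. The 41 detected genes lie to the right of the line on every array, PSMA8, PSMB8, PSMB9, PSMB10 and PSMD8 lie to the left on every array, PSMD9 lies to the right on replicate 1 only, and PSMD5 is split between 3.53 and -3.13.

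PSMD5 was the member that differed most between arrays. It encodes a chaperone of the 19S base, which binds the ATPase PSMC2 during assembly and is not part of the finished particle. On replicates 1 to 4 the level of PSMD5 was 13.004, 7.07, 12.77 and 7.19 log2 units. Replicates 1 and 3 were thus high and replicates 2 and 4 low, with a gap of 5.58 log2 units between the lower of the high values and the higher of the low ones. No other of the 17217 genes had so wide a gap in this order, and PTN followed with 5.16, SOX11 with 5.07 and NEFM with 4.77. The SD of the PSMD5 level over the 4 arrays was 3.33 log2 units, rank 1 among all genes, while the next member, PSMD9, had 0.71. These arrays carry 1 label, and nothing in the labels separates replicates 1 and 3 from 2 and 4.

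All 3 PSMD5 probes showed the split. The first probe read 13.32, 6.92, 13.51 and 7.33 log2 units on replicates 1 to 4. The second read 13.07, 7.49, 12.80 and 7.59, and the third 12.51, 6.68, 11.06 and 6.38. The high and low arrays did not overlap for any of the probes. If the numbers in their names are positions in the transcript, the probes read 1 short stretch of it. Other parts of the transcript were then not read. On replicates 2 and 4 the gene lay among the control genes, of which 5 of 10 and 6 of 10 had a higher level, and only 19.9% and 12.8% of all genes lay below it. On replicates 1 and 3 it lay above all 10 control genes and above 80.0% and 78.6% of all genes.

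Set against the baseline, PSMD5 stood at 3.53, -2.87, 2.08 and -3.13 log2 units on replicates 1 to 4. Its mean of -0.10 ± 3.41 (SD, n = 4) lies near none of the arrays, so that a rule on the mean counted it as not detected. The limma test did not call it (adjusted p = 1.0). That test gave every gene the same standard error of 0.351, far under the spread of PSMD5, so its p says little about this gene. The mean turned positive, to 0.83, without replicate 2 and to 0.92 without replicate 4. On replicates 1 and 3 alone it was 2.81 and on replicates 2 and 4 alone -3.00, a division chosen after the values were seen and given as a description.

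**Figure D2:**
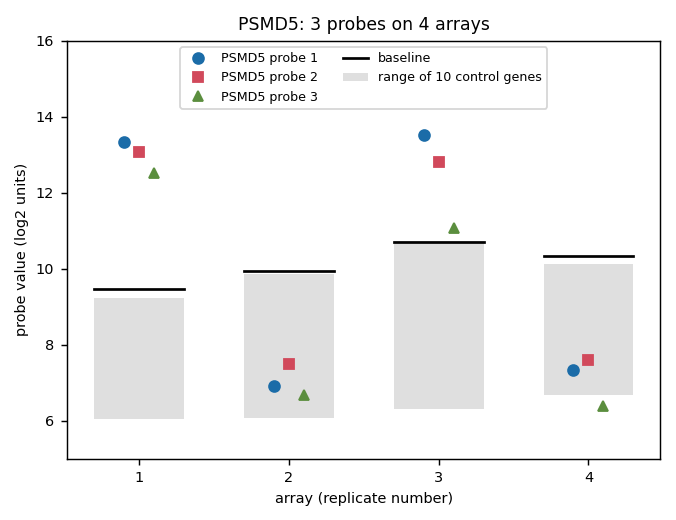
Value of each of the 3 PSMD5 probes in log2 units (vertical axis) on each array (horizontal axis), with the array's baseline as a black line and the range of the 10 control genes as a grey box. The probes lie between 11.06 and 13.51 on replicates 1 and 3 and between 6.38 and 7.59 on replicates 2 and 4.

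The promoter windows of a few members are shown to set promoters of members that stood differently side by side: PSMD5, which was split, PSMD3, which had the largest mean distance, PSMB9, as an inducible subunit below the baseline on every array, and PSMA8, which had the lowest mean distance. They were picked after the values were seen. Each line gives the 250 bases before the RefSeq start of the gene, 5′ to 3′ on the strand of the gene, in assembly GRCh38.p14. The windows lie at chr9:120842923-120843172 on the minus strand for PSMD5 and, on the plus strand, at chr17:39980557-39980806 for PSMD3, chr6:32853942-32854191 for PSMB9 and chr18:26133619-26133868 for PSMA8. Capitals mark, on either strand, the antioxidant response core TGANNNNGC, to which NFE2L1 and its relatives bind, the NF-Y box CCAAT, the GC box GGGCGG and the TATA box TATAAA.
PSMD5: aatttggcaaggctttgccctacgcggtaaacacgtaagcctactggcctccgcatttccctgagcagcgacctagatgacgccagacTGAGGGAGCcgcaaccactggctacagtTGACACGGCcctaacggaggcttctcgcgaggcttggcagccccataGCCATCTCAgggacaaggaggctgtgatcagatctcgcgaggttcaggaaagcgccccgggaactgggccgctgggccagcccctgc
PSMD3: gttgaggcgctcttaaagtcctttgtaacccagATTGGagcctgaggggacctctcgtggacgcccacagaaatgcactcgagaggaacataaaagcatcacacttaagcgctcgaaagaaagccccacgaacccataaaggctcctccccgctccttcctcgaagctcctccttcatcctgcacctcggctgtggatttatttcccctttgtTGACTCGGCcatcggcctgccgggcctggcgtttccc
PSMB9: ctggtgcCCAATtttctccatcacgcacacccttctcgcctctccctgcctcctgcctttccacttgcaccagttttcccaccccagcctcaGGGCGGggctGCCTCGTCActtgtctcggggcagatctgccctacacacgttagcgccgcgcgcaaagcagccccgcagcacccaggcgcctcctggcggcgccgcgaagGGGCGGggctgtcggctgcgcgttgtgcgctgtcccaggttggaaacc
PSMA8: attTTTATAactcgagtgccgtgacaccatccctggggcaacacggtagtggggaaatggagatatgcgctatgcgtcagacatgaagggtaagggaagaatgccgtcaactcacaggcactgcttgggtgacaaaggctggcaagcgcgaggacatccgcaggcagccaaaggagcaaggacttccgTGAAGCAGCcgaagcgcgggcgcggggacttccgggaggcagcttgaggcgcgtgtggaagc

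The PSMD5 window held 3 matches to the antioxidant response core and none to the other motifs, and its GC share was 61.6% with 16 CpG dinucleotides. The PSMD3 window held 1 such core and 1 NF-Y box. The PSMB9 window held 1 core, 1 NF-Y box and 2 GC boxes, and the PSMA8 window 1 core and 1 TATA box. Windows were given for 42 of the 48 genes, 53 windows in all. The core was found in 56.6% of these and in 34.9% of the 19712 windows of all named genes, so that many unrelated promoters hold it too. The NF-Y box was found in 41.5% and 32.9%, the GC box in 64.2% and 54.8%, and the TATA box in 9.43% and 8.74%. The median GC share was 62.0% in the members' windows and 62.4% in all windows. A match to such short motifs is a description of the letters and does not show a site in use.

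The other 19S chaperones did not follow PSMD5. PSMD10, also called gankyrin, binds the ATPase PSMC4. Its distance was 4.61, 4.14, 3.17 and 3.32 log2 units on replicates 1 to 4, with a mean of 3.81 ± 0.68 (SD, n = 4). PSMD9 binds the ATPase PSMC3 and lay at 0.26, -0.04, -1.36 and -2.01 on the same arrays. Its mean was -0.79 ± 1.08 (SD, n = 4), within the spread between arrays, and it was above the baseline on replicate 1 only. With replicates 1 and 2 alone the mean was 0.11. PAAF1, a further chaperone of the ATPase ring that is named outside the PSM series, had a mean distance of 3.03 ± 0.61 (SD, n = 4).

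PSMC2, to which PSMD5 binds, had levels of 15.01, 15.18, 14.78 and 14.57 log2 units on replicates 1 to 4. PSMC1 and PSMD2, which join it in the same assembly module, read 14.70, 14.70, 14.28 and 14.53, and 15.04, 15.16, 14.28 and 14.73. None of these genes had replicates 1 and 3 above replicates 2 and 4. Of all 48 genes, 7 had both of replicates 1 and 3 above both of 2 and 4, beside 22.2% of all genes, and 5 had the reverse order, beside 18.5%. In the first order the widest gap after PSMD5 was 0.13 log2 units, for PSMC6. In the reverse order the widest gap was 0.75, for PSMB10, whose levels were 7.82, 8.84, 8.10 and 9.37 and all below the baseline.

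All 7 alpha subunits of the 20S particle, PSMA1 to PSMA7, were detected, and each lay above the baseline on all 4 arrays. Their mean distances ran from 1.58 log2 units for PSMA1 to 4.47 for PSMA4, and the SDs from 0.65 to 0.95 (n = 4). These rings form the gate of the core. PSMA4 had distances of 5.28, 4.72, 3.93 and 3.96 on replicates 1 to 4. PSMA8, which takes the place of PSMA7 in male germ cells, lay below the baseline on every array, at -3.33, -3.50, -3.61 and -3.14. Of 5 germ cell markers 1 was detected, SYCP3, beside 52.7% of all genes. DDX4, a defining marker, stood at -3.57 ± 0.60 (SD, n = 4).

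The beta subunits without a cutting site, PSMB1 to PSMB4, were all detected. Their mean distances ran from 3.603 for PSMB3 to 5.00 for PSMB4, whose distances were 5.70, 5.16, 4.23 and 4.90 on replicates 1 to 4. The constitutive cutting subunits were detected as well. PSMB5, which cuts after hydrophobic residues and is the target of bortezomib, had distances of 4.71, 4.53, 3.56 and 3.83 log2 units on replicates 1 to 4. PSMB6, which cuts after acidic residues, had 4.99, 4.51, 3.37 and 3.88, and PSMB7, which cuts after basic residues, 5.53, 4.81, 4.00 and 4.03. All of these values were above the baseline, and the means were 4.16 ± 0.55, 4.19 ± 0.71 and 4.59 ± 0.73 (SD, n = 4 for each).

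None of the 3 inducible subunits was detected. PSMB8, which replaces PSMB5, had distances of -2.38, -3.17, -3.40 and -2.57 log2 units on replicates 1 to 4. PSMB9, which replaces PSMB6, had -0.66, -1.14, -2.16 and -1.83. PSMB10, which replaces PSMB7, had -1.65, -1.10, -2.60 and -0.95. No array showed any of them above the baseline, and limma called none (adjusted p = 1.0 for each). This depended on the baseline for PSMB9 and PSMB10. With the controls AFG2A and SPATA13 left out they stood at 0.88 and 0.75 and limma called both (adjusted p = 0.0019 and 0.0080), while PSMB8 kept its place below. With olfactory receptor genes as controls limma called PSMB9 (adjusted p = 0.017) and not PSMB10 (adjusted p = 0.060). Message under the baseline is not shown to be absent.

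Genes that work with the inducible subunits in antigen processing were mixed. Of 9 genes, 6 were detected, beside 52.7% of all genes. The peptide transporter genes TAP1 and TAP2 had mean distances of 3.13 ± 0.54 and 1.32 ± 0.46 log2 units, and B2M, the light chain of the presenting molecules, 4.05 ± 0.96 (SD, n = 4 for each). The interferon-responsive regulators IRF1 and NLRC5 lay below the baseline on every array, at -2.17 ± 0.47 and -1.17 ± 0.14, and so did the trimming enzyme ERAP1 at -2.85 ± 0.98. As markers of immune cells, in which the inducible subunits are made without interferon, 7 genes were read. Of these 1 was detected, CD68, beside 52.7% of all genes. Their mean distances ran from -3.56 to 1.67, and the defining marker PTPRC stood at -3.50 ± 0.50 (SD, n = 4).

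All 6 ATPases of the 19S particle, PSMC1 to PSMC6, were detected on all 4 arrays. Their mean distances ran from 3.10 log2 units for PSMC6 to 5.13 for PSMC4, with SDs of 0.63 to 0.76 (n = 4). PSMC4 had distances of 5.89, 5.38, 4.48 and 4.76 on replicates 1 to 4. It was read by 2 targets, which lay close together at 5.08 and 5.18. PSMC6 had 4.17, 3.13, 2.51 and 2.60 on the same arrays.

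Of 11 non-ATPase subunits of the 19S particle, 10 were detected on all 4 arrays. This set held the 3 largest mean distances of the 48 genes. PSMD3, a subunit of the lid, had distances of 6.07, 5.47, 4.77 and 5.12 log2 units on replicates 1 to 4. PSMD11, another lid subunit, had 6.08, 5.49, 4.62 and 4.87. PSMD1, a scaffold of the base, had 5.90, 5.74, 4.35 and 4.93. Before subtraction the PSMD3 levels were 15.54, 15.41, 15.46 and 15.44, the smallest spread of any member at an SD of 0.06. Its probes reached 15.92, near the highest value in the table, and whether this ceiling narrows the spread was not tested. PSMD6, another lid subunit, had a mean distance of 3.82 ± 0.83 (SD, n = 4). PSMD14, the enzyme that removes ubiquitin from the substrate, had a mean distance of 4.43 ± 0.73 and the ubiquitin receptor PSMD4 one of 4.67 ± 0.58 (SD, n = 4 for each).

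PSMD8 was the exception among the non-ATPases. It is a subunit of the lid that every complete 19S particle contains. Its distance was -1.07, -2.01, -2.55 and -1.48 log2 units on replicates 1 to 4, below the baseline on each. All 3 of its probes were below the baseline on all 4 arrays, with mean distances of -2.33, -1.76 and -1.67. If the numbers in their names are positions in the transcript, these probes overlap on 1 short stretch of it. They are then not independent readings of PSMD8, and other parts of its transcript were not read. With AFG2A and SPATA13 left out of the controls PSMD8 stood at 0.55 and limma called it (adjusted p = 0.037). PSMD7, the partner of PSMD14 in the lid, and PSMD12 were the lowest of the detected members of this set, at 1.89 ± 0.91 and 1.97 ± 0.67 (SD, n = 4 for each). Whether probe affinity or transcript level sets these low values was not tested.

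The activators, which open the core in place of the 19S particle, were detected on all 4 arrays. PSME1 and PSME2, whose products form 1 ring and are raised by interferon, had mean distances of 2.95 ± 0.87 and 1.69 ± 0.36 log2 units (SD, n = 4 for each). PSME3, the nuclear activator, stood at 3.00 ± 0.55 and PSME4, which acts on acetylated histones, at 4.50 ± 0.77 (SD, n = 4 for each). The third PSME3 probe read 11.40, 11.16, 11.86 and 6.78 on replicates 1 to 4, with a distance of -3.54 on replicate 4. On that array its first and second probes read 13.89 and 13.84, so the gene value hides this low reading. The inhibitor PSMF1 stood at 3.04 ± 0.59 (SD, n = 4), with 3.47, 3.44, 2.21 and 3.07 on replicates 1 to 4.

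A single probe of PSMF1 showed a split that the gene value hides. This second probe read 5.999, 12.56, 7.38 and 11.997 log2 units on replicates 1 to 4. Replicates 2 and 4 were high, the reverse of PSMD5, with a gap of 4.61, which ranked 16 among 57375 named probes in that order. The first PSMF1 probe read 14.35, 14.55, 14.40 and 14.74 and the third 11.39, 10.81, 10.14 and 9.61, neither with such a gap. One probe of PSMD13, in the lower of its 2 targets, read 10.51, 7.86, 10.25 and 8.31, a gap of 1.94 in the order of PSMD5. In all, 4 member probes had replicates 1 and 3 over 2 and 4 by more than 1 log2 unit, 3 of them those of PSMD5, beside 2.67% of named probes. In the reverse order there were 3, beside 2.28%.

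The chaperones of the 20S particle PSMG1, PSMG2 and PSMG3 were detected on all 4 arrays. PSMG1 and PSMG2 act as a pair in building the alpha ring. PSMG1 had distances of 5.25, 4.99, 2.77 and 4.18 log2 units on replicates 1 to 4, and PSMG2 3.53, 3.09, 1.90 and 2.12. PSMG3 had 2.54, 2.88, 0.67 and 2.22, the lowest single value of any detected member. For PSMG1 and PSMG3 replicate 3 was the lowest array before subtraction too, at 13.46 and 11.36, against 14.50 to 14.93 and 12.01 to 12.81 on the others. POMP, the chaperone that completes the core, had 3.47, 2.72, 1.31 and 1.70.

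Probes of 1 gene did not always lie on the same side of the baseline. All probes of 27 members were above it on all 4 arrays, and 123 of the 168 probes (73.2%) were, beside 38.3% of all named probes. By their mean distance, the probes of 8 members fell on both sides, and those of 6 members all fell below. For all genes the share on both sides was 25.5%. The widest spread was in PSMA1, whose probes ran from -1.22 to 5.05 log2 units. The first of its targets had distances of 5.04, 4.33, 3.54 and 3.30 on replicates 1 to 4, and the second -0.22, -0.67, -1.65 and -1.03. They stood at 4.05 ± 0.79 and -0.89 ± 0.61 (SD, n = 4 for each), so that its mean of 1.58 includes a target below the baseline. It was the only one of 8 members with 2 targets whose targets lay on different sides.

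**Figure D3:**
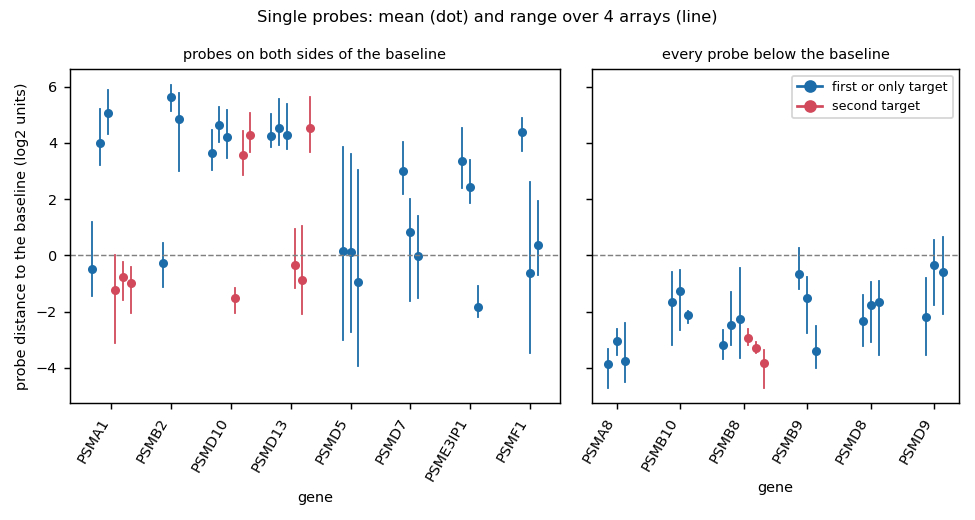
Distance of single probes to the baseline in log2 units (vertical axis) for the 8 members whose probes fell on both sides (left) and the 6 whose probes all fell below (right), as the mean (dot) and range (line) over 4 arrays, with the second target of a gene in red. The lines of PSMD5 and of the second PSMF1 probe cross the baseline widely, while those of PSMA8 stay below it.

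The detected members had a lower median spread of the level between arrays than all detected genes. The median SD of the level over 4 arrays was 0.25 log2 units for the 41 detected members, with a range of 0.06 to 0.65. It was 0.33 for all detected genes and 0.30 for the 6080 genes in the same range of levels, from 11.69 to 15.46. Some members lay above these medians, among them PSMG1 at 0.65, PSMG3 at 0.64 and PSMA2 at 0.54, and PSMD9 and PSMB10, neither of them detected, at 0.71 each. The median absolute difference of a member between 2 arrays ran from 0.13 for replicates 1 and 2 to 0.43 for replicates 1 and 4, and that of all genes from 0.40 to 0.56. Replicates 1 and 2 share 1 distribution of values and replicates 3 and 4 another, and the part of this in the differences was not tested.

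**Figure D4:**
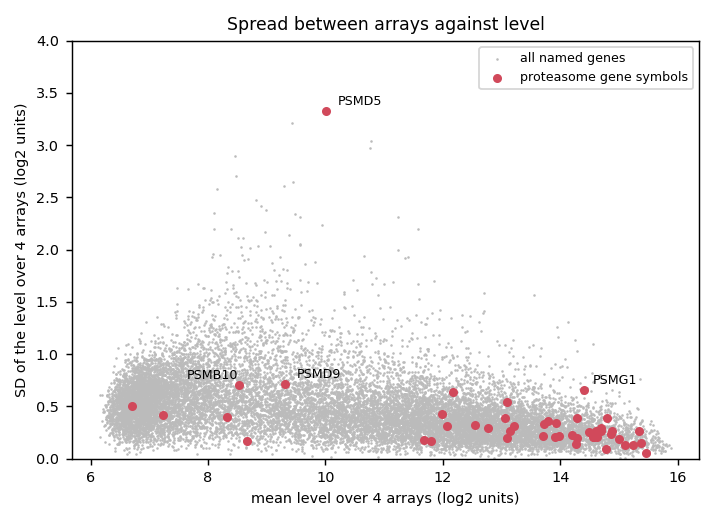
SD of the level over 4 arrays (vertical axis) against the mean level (horizontal axis), both in log2 units, for all 17217 named genes in grey and the 48 members in red. PSMD5 has the highest SD of all genes, at 3.33, and the other members lie at 0.71 or less.

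Genes outside the PSM series that serve the proteasome were almost all detected. Of 29 listed, 28 were measured (ECPAS was not matched). All 28 had a mean distance above 0, beside 52.7% of all genes. On all 4 arrays 27 lay above the baseline, beside 45%, and limma called 27, beside 45.9%. The exception was UBA6, an enzyme that activates ubiquitin, at 0.13 ± 0.80 log2 units (SD, n = 4, limma adjusted p = 0.682). The 19S subunits ADRM1, a ubiquitin receptor, and SEM1 stood at 3.87 ± 0.52 and 3.09 ± 0.88 (SD, n = 4 for each). The deubiquitinases UCHL5 and USP14, which work on the 19S particle, stood at 3.56 ± 1.44 and 2.46 ± 0.76. UCHL5 had distances of 4.37, 4.54, 1.44 and 3.89, lowest on replicate 3. NFE2L1 stood at 4.83 ± 0.71, and DDI2 and NGLY1, a protease and a glycan-removing enzyme that activate it, at 2.86 ± 0.60 and 1.87 ± 0.70 (SD, n = 4 for each). The NFE2L1 levels were 15.35, 14.24, 15.35 and 14.82 on replicates 1 to 4, in the order of PSMD5 with a gap of 0.53, as were 7 of the 28 partner genes, beside 22.2% of all genes. The DDI2 levels were 11.85, 12.23, 14.08 and 13.69, higher on replicates 3 and 4. AKIRIN2, which carries proteasomes into the nucleus, stood at 4.34 ± 0.83 (SD, n = 4).

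As a description, 7 genes commonly seen in HEK293 cells were read. This list was chosen with earlier results of these data known, so its counts cannot check the label. By the mean 6 were detected, beside 52.7% of all genes. Of the 7 genes, 5 exceeded the baseline on all 4 arrays, beside 45% of all genes, and limma called them, beside 45.9%. Among these 5 were VIM at 5.26 ± 0.64 and NEFL at 4.01 ± 0.56 log2 units (SD, n = 4 for each). PAX2 lay below the baseline at -1.63 ± 0.74. NEFM, detected only by its mean of 0.66 ± 3.08 (SD, n = 4, limma adjusted p = 0.064), had levels of 13.57, 8.32, 13.09 and 8.08 on replicates 1 to 4. The shared standard error of 0.351 lies far under its spread, so that p says little about NEFM. NEFM was among 5 of the 7 with the order of PSMD5, beside 22.2% of all genes. Its gap was 4.77, followed by INA at 0.84, KRT8 at 0.39, NEFL at 0.08 and VIM at 0.02. None of 3 markers of thymus epithelium was detected by the mean rule, beside 52.7% of all genes. Results that rest on PSMD5 are therefore given for each array.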

How the data were processed

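Total RNA of 4 untreated HEK293 cultures was measured. The deposited table holds a log2 intensity for every probe on every array, made by the authors from scans read with NimbleScan 2.4. RMA is named in the submitters' processing notes, with no settings. Sorted values agreed within 0.01 at 99.97% of ranks for replicates 1 and 2, at 99.99% for replicates 3 and 4, and at 1.23% to 1.25% for arrays of different pairs. No pair shared more than 8 identical probe values, and all 4 arrays were counted.

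Probe names hold a RefSeq accession, matched without versions to RefSeq of GRCh38.p14, which named 19125 of 24000 targets and 17217 genes. A target was log2 of the mean linear probe value, and a gene the mean of its targets. Of 11 control genes 10 were matched. The one-sided test used limma 3.58 in R 4.3 on all 17217 genes. Its prior degrees of freedom were infinite. A shift of the baseline moves all genes of an array, so the tests were not independent. An exact one-sided sign-flip test on 4 arrays cannot go below 0.0625. Named genes were members, control genes, the fixed lists and, chosen after their values were seen, the genes with the widest gaps and the neighbours of PSMD5. Arrays were given in full for PSMD5, members below the baseline, the 5 largest and 5 smallest distances and targets on different sides, and for further members chosen after their values were seen. Members and lists were chosen with earlier results of these data known. A planned comparison of protein sequences was not made, because no protein table was used here. The closing section names the alternatives tried.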

Additional observations from a re-analysis of the deposited data

Results flagged for a closer look

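The distance and the level of 107 genes were searched for a lone array, by Dixon's ratio of its gap to the whole range. Chance marks about 1 in 20 of the 214 quantities examined, which is more than the marks listed below. None of the 48 proteasome genes was marked. PSMD5 is not of this kind, since its arrays fell into pairs.

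The level of UBB, a ubiquitin gene, was 14.74 log2 units on replicate 3 against 15.37 to 15.49 elsewhere (ratio 0.837). The level of RPS27A, another ubiquitin gene, was 13.47 on replicate 3 against 14.80 to 15.05 elsewhere (ratio 0.843). The distance of TAP1 was 3.93 on replicate 1 against 2.81 to 2.98 elsewhere (ratio 0.850). The level of the immune cell marker PTPRC was 7.73 on replicate 3 against 6.22 to 6.24 elsewhere (ratio 0.988), all below the baseline. The distance of the germ cell marker TNP1 was -2.30 on replicate 2 against -3.38 to -3.22 elsewhere (ratio 0.855).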

How the results depend on the processing

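The alternatives were 19 fixed ones and 2 added after the data were examined, replicates 1 and 3 alone and replicates 2 and 4 alone. No paired analysis was possible because there was 1 group. Filtering dim genes left no value for the members it dropped. The number of detected members, 41, ran from 41 to 46, and the number of members called by limma from 36 to 46. The number above the baseline on every array used, 41, ran from 37 with 3 SD to 45 without AFG2A and SPATA13. The median distance of members, 3.85, ran from 3.59 to 4.12 when 1 array was left out and moved to 5.16 with a baseline of 1 SD, 2.53 with 3 SD, 6.17 without AFG2A and SPATA13, 5.93 with olfactory receptor genes as controls and 5.55 with the median and scaled MAD. Of the 48 members 38 changed neither sign nor limma call under any alternative, and 5 lost the limma call with 3 SD. The 41 detected members and the 41 limma calls were also found with quantile normalization of all 4 arrays, the highest target of a gene, arrays centred on their medians (no distance changes by construction), a trend and robust prior in limma, and a random block for the arrays that share a distribution (1 with 2, 3 with 4). Depth here means signal over background, which cannot be read without raw intensities.

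Signs changed for genes near the baseline. With 1 SD, PSMD5 stood at 1.22, PSMD9 at 0.53 and NLRC5 at 0.15. With 3 SD, UBA6 stood at -1.18. Without AFG2A and SPATA13 the values were 0.75 for PSMB10, 0.88 for PSMB9, 2.23 for PSMD5, 0.55 for PSMD8, 1.54 for PSMD9, 1.16 for NLRC5 and 0.16 for IRF1. With olfactory receptor genes they were 0.51, 0.64, 1.99, 0.31 and 1.295 for the same PSM genes and 0.91 for NLRC5. With the median and MAD they were 0.13 for PSMB10, 0.26 for PSMB9, 1.61 for PSMD5, 0.92 for PSMD9 and 0.53 for NLRC5. PSMD5 was 0.12 with the mean and 0.061 with the median of log2 probe values, and UBA6 -0.20 with the median. On replicates 1 and 2 alone PSMD5 was 0.33 and PSMD9 0.11, on replicates 3 and 4 alone UBA6 was -0.54, and on replicates 1 and 3 alone PSMD5 was 2.81. Leaving out 1 array gave -1.31 to 0.92 for PSMD5 and -0.17 to 0.36 for UBA6. Lowering the baseline raises every distance by construction. The cause of the other shifts was not tested. Slides were not given in the sources used here, so the only block fitted was that of the arrays sharing a distribution.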

Other observations

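The genes next to PSMD5 were looked at after its values had been seen. In the order of the reference table the nearest measured gene on either side was FBXW2 and PHF19, both detected. FBXW2 had levels of 12.96, 12.42, 12.91 and 12.16 log2 units on replicates 1 to 4, and PHF19 12.59, 11.87, 12.84 and 12.09. Both were higher on replicates 1 and 3 than on 2 and 4, with gaps of 0.49 and 0.50. CDK5RAP2, beyond FBXW2, had a gap of 0.86 in the same order and C5, beyond PHF19, one of 1.31, the latter with all levels below the baseline. The first 4 measured genes on each side in the order of the reference table were read, at any distance. Of these 8 genes, 4 had this order, beside 22.2% of all genes. TRAF1, between PHF19 and C5, did not have it, at 8.31, 8.72, 9.31 and 8.98. B3GALT9 and CUTALP, which adjoin PSMD5, were not measured by a matched target. No test was made of these values.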
